A study of Mus musculus with 15 samples.

Results

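Bulk RNA sequencing compared skin healed from 15 mm full-thickness wounds that had received printed Matrigel beads that carried mesenchymal stem cells (MSCs) at high density (HDB) with skin from 15 mm wounds that had received acellular Matrigel beads. Each group held 3 samples, so 6 of the 15 samples of the series carry the comparison, and they were chosen by the bead type and the wound size in their labels. All mice were wild type. By the study's methods they were male balb/c mice 4 to 6 weeks old with a rounded excision of dorsal skin, and the wounds differed in whether part of the beads held cells, since acellular beads filled the gaps between HDB beads too. The cells were human umbilical cord MSCs, and the table lists mouse genes, so the transplanted cells' own transcripts are not listed separately. For the sequenced skin the methods name an implantation of 4 weeks, but they end the wound experiment on day 21. The remaining samples were acellular and HDB skin from 10 mm wounds and normal skin, 3 each. Nothing in the labels says whether the 3 samples of a group came from separate animals, so p-values rest on the spread between samples. In the main fit that spread was estimated over all 15 samples in 5 groups.

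Full-thickness skin wounds in the mouse close by contraction, by migration of epidermal keratinocytes and by granulation tissue, in which fibroblasts lay down collagen and new vessels form. MSCs are known mainly for secreted factors that act on these host cells. Dorsal skin of young mice also passes through synchronized hair cycles, in which growing follicles switch on hair keratins, pigment cell genes and cell division genes. Bulk RNA measures tissue, so fewer cells of a type and less RNA per cell cannot be told apart.

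Across the 18929 mouse genes listed, 15369 had enough counts to be tested. Genes with an adjusted p under 0.05 from edgeR's quasi-likelihood test are called here. At 15 mm, 450 genes were called (2.93% of those tested). Of these, 89 were higher (0.579%) and 361 lower (2.35%) in HDB skin. An unadjusted p under 0.05 was found for 3567 genes (23.2%). Of 37 listed genes for large regulators of chromatin and transcription, 26 were called lower. Of 82 listed genes for the mitochondrial respiratory chain and ATP synthase, 11 were called higher. The cytokine gene Tslp and the chemokine receptor gene Ackr3 also rose. No gene of the hair, pigment cell, matrix, endothelial or macrophage lists was called, and the mean of each of these lists overlapped between the groups. Most differences were modest, with a median log2 fold change of 0.65 among the genes called higher and -0.69 among those called lower, against 0.00 over all genes tested. Only 2 of the higher and 55 of the lower genes changed by 1 or more on the log2 scale. In 449 of the 450 called genes the 3 HDB samples and the 3 acellular samples did not overlap, which held for 20.3% of all genes tested. Calls and non-overlap rest on the same values, so this is no added support for the calls.

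The calls rested on few samples. Without HDB replicate 1, 2 or 3 in turn, 0 genes were called, although 2545 to 3083 had an unadjusted p under 0.05. Without acellular replicate 1, 152 genes were called, without replicate 2, 651, and without replicate 3, 2322. Without acellular replicate 1, 18 of the 89 and 108 of the 361 were still called. No called gene changed direction when any of the 6 samples was left out. A block for the replicate number across the 5 groups left 40 higher and 139 lower genes (1.16%), among them 36 of the 89 and 137 of the 361. A block within the 15 mm samples alone, where same-numbered samples deviated together, gave 210 higher and 581 lower (5.15%), among them 87 of the 89 and 354 of the 361. The pairing in this block was read from the same expression values, not from a label. DESeq2 called 599 higher and 1575 lower (14.1%). Fits of the 15 mm groups only called 0 genes (1600 at an unadjusted p under 0.05), as did the same fit with a block (1544), a fit of the wound groups only (2962) and voom with group quality weights (1840). After the trend with transcript length had been taken out of each sample, 0 genes were called and 2551 had an unadjusted p under 0.05.

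Total counts ranged from 16672056 to 18404188 in the 6 samples. Marker genes of the interfollicular epidermis were plentiful in all of them, with list means from 6.22 to 6.95 on the log2 CPM scale (CPM, counts scaled to library size). Acellular replicate 1 stood apart from the other 5 samples on the first principal component, which held 57.9% of the variance among the 6. Between acellular samples the correlation of log2 CPM across genes was 0.853 to 0.921, and between HDB samples 0.961 to 0.975. The acellular samples thus differed more among themselves.

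The promoters of 4 called genes are printed to show the sequence context on each side of the comparison, with Uqcc2 and Mpc2 from the genes called higher and Lyst and Med13l from those called lower. Each is the 250 bases before the gene's start in RefSeq (build GRCm38.p6), 5′ to 3′ on the gene's strand. Capitals mark the GC box letters GGGCGG and the CCAAT letters on either strand.
Uqcc2, chr17:27133892-27134141, minus strand: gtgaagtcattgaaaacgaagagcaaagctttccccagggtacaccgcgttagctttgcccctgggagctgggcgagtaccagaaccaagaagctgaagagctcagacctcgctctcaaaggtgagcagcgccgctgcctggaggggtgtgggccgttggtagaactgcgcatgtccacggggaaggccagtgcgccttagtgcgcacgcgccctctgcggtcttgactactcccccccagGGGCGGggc
Mpc2, chr1:165461010-165461259, plus strand: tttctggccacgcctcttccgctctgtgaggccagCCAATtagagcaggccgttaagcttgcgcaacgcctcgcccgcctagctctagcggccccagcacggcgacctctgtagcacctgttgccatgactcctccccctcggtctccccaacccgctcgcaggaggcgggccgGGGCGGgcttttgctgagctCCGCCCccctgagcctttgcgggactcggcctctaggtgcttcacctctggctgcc
Lyst, chr13:13590159-13590408, plus strand: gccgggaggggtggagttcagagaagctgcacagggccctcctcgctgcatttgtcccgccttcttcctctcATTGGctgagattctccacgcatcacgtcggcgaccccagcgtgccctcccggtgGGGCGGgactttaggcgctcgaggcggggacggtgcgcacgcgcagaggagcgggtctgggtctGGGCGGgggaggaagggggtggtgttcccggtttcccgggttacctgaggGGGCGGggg
Med13l, chr5:118560469-118560718, plus strand: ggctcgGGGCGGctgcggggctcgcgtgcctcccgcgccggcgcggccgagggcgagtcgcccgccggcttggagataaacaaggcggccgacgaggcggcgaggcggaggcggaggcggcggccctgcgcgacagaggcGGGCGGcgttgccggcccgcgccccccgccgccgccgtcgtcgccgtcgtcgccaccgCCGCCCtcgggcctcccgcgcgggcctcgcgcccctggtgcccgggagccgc

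Promoter windows were found for 78 of the genes called higher (92 windows) and 281 of those called lower (342 windows). The GC box letters GGGCGG stood in 46 of the 92 windows of genes called higher and in 235 of the 342 windows of genes called lower (68.7%). They stood in 53.3% of the windows of all genes tested and in 32.7% of all windows in the table. The CCAAT letters went the other way, with 42.4%, 24.9%, 34.9% and 33.8% in the same order. Median GC content was 57.6% in windows of genes called higher and 64.4% in windows of genes called lower, against 58.8% over all genes tested. TATAAA stood in 8.70% and 6.14% of the windows, and in 7.71% over all genes tested. These motifs were searched on both strands, and the matches describe letters only.

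Among genes called higher, above 1 CPM on average and chosen for no overlap between the groups, Tslp had the largest fold change. It encodes thymic stromal lymphopoietin, an epithelial cytokine that acts on dendritic cells and other immune cells. Tslp stood at 0.794, 0.700 and 1.22 CPM in acellular skin and at 3.08, 3.76 and 2.77 CPM in HDB skin, and the groups did not overlap. Its log2 fold change was 1.81 (standard error 0.34, adjusted p = 0.0250). Normal skin had a mean of 3.21 CPM, so the acellular samples were low and the HDB samples near normal skin. Ackr3, the atypical receptor that binds and removes the chemokine Cxcl12, stood at 16.1, 28.6 and 30.3 CPM in acellular skin and at 50.1, 68.6 and 44.1 CPM in HDB skin. The groups did not overlap, at a log2 fold change of 1.12 with an adjusted p of 0.0437 (standard error 0.26). Without acellular replicate 1 the adjusted p was 0.0625 for Tslp and 0.0817 for Ackr3. No other gene called higher changed by 1 or more on the log2 scale, and the mean of Ackr3 in normal skin was 74.1 CPM.

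The other 8 of the 10 largest rises lay between 0.85 and 0.93 on the log2 scale. S100a13, a calcium-binding protein involved in export of proteins without a signal peptide, had a log2 fold change of 0.93. Apod, apolipoprotein D, a secreted lipid carrier, stood at 42.3, 71.2 and 69.0 CPM in acellular skin and at 109.6, 126.8 and 105.7 CPM in HDB skin (log2 fold change 0.91). Nenf, which encodes the secreted protein neudesin, stood at 32.6, 42.5 and 45.0 CPM in acellular skin and at 68.8, 72.5 and 80.8 CPM in HDB skin. Its log2 fold change was 0.89 (standard error 0.14, adjusted p = 0.0229), and every HDB sample lay above every acellular one. Selenom, an endoplasmic reticulum selenoprotein, and Gpx8, a peroxidase of the same compartment, both had a log2 fold change of 0.86. Smim26 (0.89), Lysmd2 (0.88) and Mpc2 (0.85), a subunit of the mitochondrial pyruvate carrier, completed these rises. Without acellular replicate 1, only Nenf of these 8 was called (adjusted p = 0.0365). With the block across 5 groups, Apod (adjusted p = 0.0634), Smim26 (0.0567) and Mpc2 (0.0567) were no longer called, while the block within 15 mm called all 3 (0.0310, 0.0263 and 0.0238).

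A second rule took genes above 10 CPM that were called in the most alternative settings. Cnih1, which encodes a cargo receptor for export from the endoplasmic reticulum, stood at 66.9, 67.9 and 69.0 CPM in acellular skin and at 97.7, 109.2 and 106.1 CPM in HDB skin. The log2 fold change was 0.62 (standard error 0.09, adjusted p = 0.0229). Serf2 stood at 182, 206 and 183 CPM in acellular skin and at 269, 294 and 311 CPM in HDB skin (log2 fold change 0.62, standard error 0.11). Uqcc2, an assembly factor of respiratory complex III, stood at 41.9, 48.4 and 36.0 CPM in acellular skin and at 66.3, 73.4 and 66.0 CPM in HDB skin (log2 fold change 0.70, standard error 0.13). Nenf and the complex I subunit gene Ndufa2 were the others. Each of these 5 was called in 11 of the 20 alternative settings, as were Uqcrh, Bfar, Fdx1 and Srp54a, and of the 9 the rule took those with the smallest p.

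**Figure D1:**
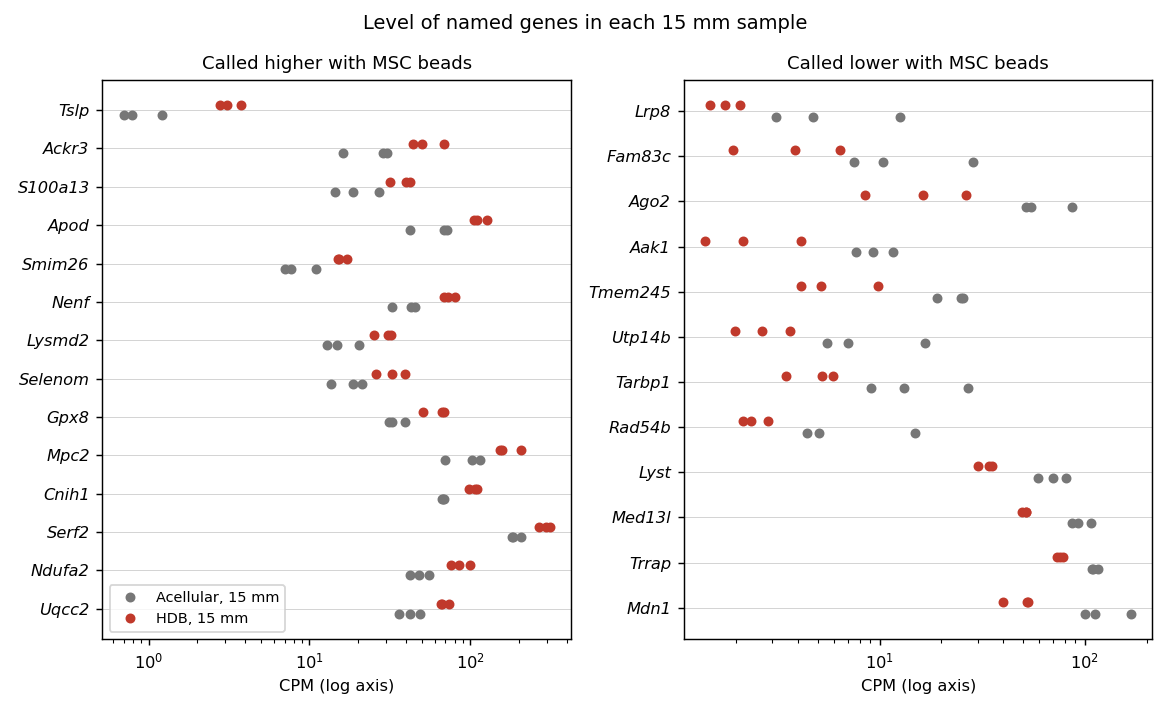
Level of 14 genes called higher and 12 called lower in each 15 mm sample, in CPM on a log axis, chosen by fold change or by the number of settings that called them. Grey points are the 3 acellular samples and red points the 3 HDB samples. In every gene drawn the groups do not overlap, which the choice by fold change required.

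Oxidative phosphorylation genes, as listed here, encode subunits of the mitochondrial respiratory chain and ATP synthase. Of 82 tested members, 11 were called higher and 0 lower, against 0.579% of all genes called higher. The median log2 fold change was 0.52 and 81 of the 82 values were positive. Of the members, 50 had all HDB samples above all acellular samples, which held for 8.55% of all genes. This list and the chromatin list below were written with earlier results of these data known, so their counts are not independent evidence of their direction. The list mean was 6.62, 6.67 and 6.05 log2 CPM in acellular skin, 6.95, 7.25 and 6.84 in HDB skin and 7.39 ± 0.18 (SD, n = 3) in normal skin. Skeletal muscle genes, from a tissue rich in mitochondria, had positive values in 16 of 18 with a median of 1.10 and 0 called. With 1 sample left out, their median ran from 0.44 (without HDB replicate 2) to 3.2 (without acellular replicate 2). Their list mean ranged from 5.28 to 9.80 log2 CPM in acellular and from 8.57 to 10.2 in HDB skin, with 11.1 in normal skin. Both lists were lowest in acellular replicate 3, highest among the 6 samples in HDB replicate 2 and higher still in normal skin, but the muscle list overlapped between the groups. The part of muscle in the oxidative phosphorylation values was not tested.

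The called members came from several complexes of the chain. Complex I gave Ndufa2 (log2 fold change 0.85), Ndufa13 (0.83), Ndufa6 (0.77), Ndufb11 (0.72), Ndufa1 (0.69), Ndufb4 (0.67), Ndufb3 (0.62) and Ndufa7 (0.58). Complex III gave Uqcrh (0.69), complex IV gave Cox4i1 (0.55) and ATP synthase gave Atp5l (0.67). Ndufa2 stood at 48.0, 55.0 and 42.0 CPM in acellular skin and at 75.8, 100.0 and 85.1 CPM in HDB skin, with a standard error of 0.15 and an adjusted p of 0.0250. Uqcrh, the hinge protein of complex III, stood at 172, 187 and 144 CPM in acellular skin and at 246, 294 and 272 CPM in HDB skin. The most abundant member, Atp5b, the catalytic subunit of ATP synthase, stood at 1482, 1215 and 887 CPM against 1246, 1530 and 970 CPM, and the groups overlapped. Its log2 fold change was 0.06 (standard error 0.24, adjusted p = 0.892). Small subunit genes have processed pseudogenes in the genome, so how reads were shared out among copies can affect them. Of the 82 members, 36 were called by DESeq2 (14.1% of all genes), 6 with the block across 5 groups (1.16%), 26 with the block within 15 mm (5.15%) and 4 without acellular replicate 1 (0.979%).

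The cytosolic ribosomal protein list also consists of short, abundant genes. None of its 80 members was called, 4 had an unadjusted p under 0.05 (23.2% of all genes), and DESeq2 called 0 (14.1% of all genes). Its median log2 fold change was 0.27 with 77 positive values. The list mean overlapped between the groups, with 9.39, 8.87 and 8.68 log2 CPM in acellular and 9.32, 9.07 and 9.49 in HDB skin. Rps29 had the smallest p of the list, at 327, 226 and 205 CPM against 347, 319 and 439 CPM (log2 fold change 0.54, adjusted p = 0.167). Rps2, the most abundant member, had a log2 fold change of 0.06, and its sign turned when the length trend was removed (-0.29).

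Of the 10 largest falls among genes called lower, above 1 CPM on average and chosen for no overlap, 8 are described. Ago2, the slicer of RNA interference, stood at 86.5, 51.5 and 54.9 CPM in acellular skin and at 16.2, 26.2 and 8.47 CPM in HDB skin, with no overlap (log2 fold change -1.92, standard error 0.37, adjusted p = 0.0252). Aak1, a kinase of the clathrin adaptor AP2, stood at 11.7, 7.70 and 9.24 CPM against 2.17, 4.12 and 1.41 CPM (log2 fold change -1.89, standard error 0.36). Lrp8, a receptor for reelin and apolipoprotein E, had a log2 fold change of -1.93, as did Fam83c. Tmem245 had one of -1.86. Utp14b, a retrotransposed copy of Utp14a with which reads may have been shared, had one of -1.81. Tarbp1 (-1.75), an RNA methyltransferase, and Rad54b (-1.72), a homologous recombination factor, were the others. Predicted loci without an established name were left out of this ranking.

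For 5 of these 8 genes acellular replicate 1 lay over 2-fold above both other acellular samples. Lrp8 stood at 12.5 CPM there against 4.73 and 3.13 CPM, Fam83c at 28.6 against 7.47 and 10.4, Utp14b at 16.6 against 7.002 and 5.52, Tarbp1 at 27.0 against 13.2 and 9.08, and Rad54b at 14.8 against 5.08 and 4.41. Without that sample the log2 fold changes were -1.14 for Lrp8, -1.14 for Fam83c, -1.18 for Utp14b, -1.18 for Tarbp1 and -0.94 for Rad54b. None of the 8 genes was called without that sample, with adjusted p from 0.0553 for Aak1 to 0.117 for Fam83c. With the block across 5 groups, Ago2 (adjusted p = 0.0510), Tmem245 (0.0532), Tarbp1 (0.0606), Fam83c (0.0625), Utp14b (0.0684), Lrp8 (0.0734) and Rad54b (0.0756) were not called, while Aak1 (0.0476) was. With the block within 15 mm, only Lrp8 of the 8 was not called (0.0546).

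By the number of settings that called them, 88 genes called lower tied at 11 of 20. Among those above 10 CPM the rule took the genes with the smallest p, of which 4 are described. Lyst, the lysosomal trafficking regulator, stood at 81.0, 58.9 and 70.2 CPM in acellular skin and at 34.2, 35.2 and 30.0 CPM in HDB skin (log2 fold change -1.08, standard error 0.13, adjusted p = 0.0229). Mdn1, the midasin ATPase of large ribosomal subunit assembly, stood at 168, 100 and 113 CPM against 52.2, 52.7 and 39.8 CPM (log2 fold change -1.40, standard error 0.21). Every HDB sample of both genes lay below every acellular sample. Med13l, a subunit of the Mediator kinase module, stood at 108, 92.8 and 86.5 CPM against 51.4, 51.6 and 49.2 CPM (log2 fold change -0.91, standard error 0.13). Trrap, the scaffold of several histone acetyltransferase complexes, stood at 116, 110 and 108 CPM against 78.4, 75.3 and 73.1 CPM (log2 fold change -0.55, standard error 0.08).

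Large chromatin regulators, the list that Med13l and Trrap belong to, included remodelling ATPases and their partner subunits, histone methyltransferases, acetyltransferases, Mediator subunits, corepressors and DNA dioxygenases. Of 37 tested members, 26 were called lower and 0 higher, against 2.35% of all genes called lower. The median log2 fold change was -0.71, all 37 values were negative, and in 35 every HDB sample lay below every acellular sample, against 11.7% of all genes. The list mean was 7.07, 6.84 and 6.85 log2 CPM in acellular skin, 6.29, 6.29 and 6.16 in HDB skin and 6.42 ± 0.01 (SD, n = 3) in normal skin. Without acellular replicate 1 the median was -0.58 and 19 members were called (0.979% of all genes). With the block across 5 groups 17 members were called (1.16%), with the block within 15 mm 31 (5.15%), and by DESeq2 35 (14.1%).

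The called members came from several classes. Of the Mediator kinase module, Med12 had a log2 fold change of -0.99, Med13l of -0.91 and Med13 of -0.77. Of the genes with a Kmt2 symbol, Kmt2e (-0.92), Kmt2d (-0.91), Kmt2a (-0.86), Kmt2c (-0.62) and Kmt2b (-0.60) were all called. Kmt2d stood at 197, 258 and 312 CPM in acellular skin and at 132, 146 and 132 CPM in HDB skin. Of the remodellers, Arid1a (-0.84), Chd7 (-0.79), Srcap (-0.79), Chd8 (-0.76), Bptf (-0.75), Ep400 (-0.65), Arid2 (-0.61) and Chd2 (-0.55) were called. Srcap, the ATPase that loads histone H2A.Z, stood at 168, 144 and 153 CPM against 99.9, 88.6 and 81.3 CPM. Other called members were Ash1l (-0.94), Tet3 (-0.93), Ankrd11 (-0.83), Baz2a (-0.80), Ncor1 (-0.71), Baz2b (-0.67), Setd2 (-0.63), Nsd1 (-0.63), the acetyltransferase gene Ep300 (-0.60) and Trrap (-0.55). The most abundant member, Chd4, was not called. It stood at 564, 297 and 289 CPM in acellular skin and at 230, 228 and 184 CPM in HDB skin (log2 fold change -0.84, standard error 0.22, adjusted p = 0.0621). Without acellular replicate 1 its log2 fold change was -0.45. Smarca2 alone was near 0 (-0.10), and its groups overlapped.

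Transcript length moved with these results. Genes were binned by their longest annotated transcript, which was known for 15085 of the tested genes. The median log2 fold change at 15 mm was 0.41 for the 671 genes under 1000 bases, 0.25 from 1000 to 1999, 0.05 from 2000 to 3999, -0.16 from 4000 to 7999 and -0.41 for the 857 genes of 8000 bases or more. Of the shortest genes 4.62% were called higher and 0 lower. Of the longest, 0 were called higher and 19.4% lower. Per sample, the slope of log2 CPM on each doubling of length was 0.058, 0.049 and 0.149 in acellular 15 mm skin and -0.133, -0.062 and -0.164 in HDB 15 mm skin, and these groups did not overlap. In normal skin it was 0.009, 0.017 and 0.032. What sets this slope in each sample was not tested.

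**Figure D2:**
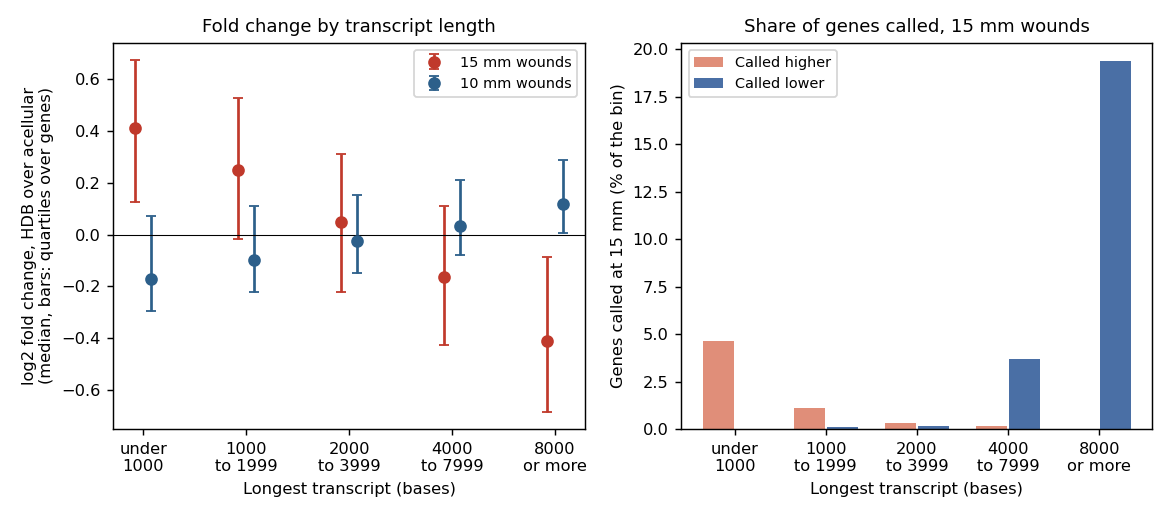
Left, log2 fold change of HDB over acellular skin by longest transcript in bases, for 15 mm wounds (red) and 10 mm wounds (blue), with points for medians and bars for quartiles over genes. Right, percent of genes in each bin called higher or lower at 15 mm. The 15 mm medians fall from 0.41 to -0.41 from the shortest to the longest bin, while those at 10 mm run from -0.17 to 0.12.

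Both lists, written with earlier results of these data known, were also set beside other genes of like length. The values describe these lists and do not test an effect beyond length. The 29 chromatin regulators of 8000 bases or more had a median log2 fold change of -0.71, against -0.39 for the other 828 genes of that length, and 23 of them were called against 17.3% of the others. The 8 members between 4000 and 7999 bases had a median of -0.73, against -0.16 for the others. Oxidative phosphorylation genes had a median of 0.53 or 0.54 under 2000 bases and of 0.49 for the 13 members from 2000 to 3999 bases. Other genes in those 3 bins had medians of 0.39, 0.25 and 0.05. Ribosomal protein genes under 1000 bases had a median of 0.30, against 0.42 for the others, and the 11 from 2000 to 3999 bases one of 0.25, against 0.05. After removal of each sample's length trend, 16.9% of all genes had an unadjusted p under 0.05. The chromatin list kept a median of -0.42 with 24 of 37 members at that level. The oxidative phosphorylation list then had a median of 0.23 with 15 of 81, near the share of all genes, and the ribosomal protein list -0.05 with 0 of 80. No gene of any list was called. All 357 genes called lower and all 88 called higher that had a known length kept their direction in that fit.

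Developmental signalling lists held few called genes. The Notch pathway, which couples cell contact to fate decisions, had 2 of 18 members called lower, both receptors, against 2.35% of all genes. Notch3, a receptor of vascular mural cells, stood at 116, 103 and 98.2 CPM in acellular skin and at 65.3, 73.0 and 48.6 CPM in HDB skin (log2 fold change -0.76, standard error 0.15, adjusted p = 0.0252). Notch2 stood at 153, 120 and 129 CPM against 99.9, 96.8 and 89.5 CPM (log2 fold change -0.49, adjusted p = 0.04998), and was called with the block within 15 mm (adjusted p = 0.0413) but not with that across 5 groups (0.0784). Notch1, the most abundant member, stood at 444, 235 and 201 CPM against 185, 132 and 169 CPM (log2 fold change -0.86, adjusted p = 0.0703). Notch1 was called with the block within 15 mm (0.0301) but not with that across 5 groups (0.0727). Without acellular replicate 1 its log2 fold change was -0.43. The receptors are long genes, and the list's median was -0.13. The list mean did not overlap, with 5.30 log2 CPM in the lowest acellular and 5.27 in the highest HDB sample. Of 30 Wnt pathway genes, Apc, the scaffold of the beta-catenin destruction complex, was the only one called. It stood at 107, 104 and 97.2 CPM against 68.0, 74.9 and 60.2 CPM (log2 fold change -0.60, adjusted p = 0.0340, with the block across 5 groups 0.0606, within 15 mm 0.0292). DESeq2 called 7 genes of the Notch list and 7 of the Wnt list, against 14.1% of all genes. Ctnnb1, which encodes beta-catenin, had a log2 fold change of -0.23 that was 0.00 without acellular replicate 1. None of 12 Hedgehog genes was called, with 4 at an unadjusted p under 0.05 and 2 called by DESeq2, against 23.2% and 14.1% of all genes. Smo, the signal transducer, had a log2 fold change of -0.32 (adjusted p = 0.150). Gli3 had one of -1.36, and of -0.35 without acellular replicate 1.

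Hair follicle genes varied strongly among the acellular samples. The hair shaft keratins, which build the growing hair, had a list mean of 9.23, 6.51 and 0.31 log2 CPM in acellular replicates 1, 2 and 3 and of 5.34, 2.41 and 2.30 in HDB skin, and the groups overlapped. Krt83 stood at 2803, 228 and 1.54 CPM against 91.1, 10.4 and 5.25 CPM, and Krt32 at 244, 35.2 and 4.41 CPM against 21.8, 4.73 and 9.77 CPM. Inner root sheath genes followed the same order of samples, with Tchh, the trichohyalin gene, at 5034, 256 and 10.8 CPM against 127, 38.4 and 34.7 CPM. Krt28 stood at 636, 70.4 and 3.66 CPM against 28.7, 7.82 and 8.53 CPM. Of the 11, 9 and 13 tested members of the shaft, inner root sheath and hair matrix lists, 0 were called, although 10, 6 and 9 had an unadjusted p under 0.05 (23.2% of all genes) and DESeq2 called 3, 3 and 6 (14.1% of all genes). These lists had 3, 4 and 8 members called without acellular replicate 3, against 14.9% of all genes. Their median log2 fold changes of -4.83, -3.98 and -2.63 became -1.61, -1.30 and -0.54 without acellular replicate 1, where 0 members were called. Lef1, a transcription factor of the hair matrix, stood at 228 CPM in that sample and between 5.88 and 15.2 CPM in the other 5. Gata3 had a log2 fold change of -0.31 with overlapping groups.

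Pigment cell and cell division genes were high in that sample as well. The melanocyte list mean was 7.13 log2 CPM in acellular replicate 1, 2.73 and 3.50 in the other acellular samples and 3.54, 3.38 and 3.62 in HDB skin. Oca2, a melanosomal transporter, stood at 96.1 CPM in that sample and between 0.0531 and 0.282 CPM in the others. Dct, a melanin synthesis enzyme, stood at 814 CPM there and between 26.5 and 74.1 CPM elsewhere. Without the sample the log2 fold changes turned sign, from -7.63 to 0.83 for Oca2 and from -2.39 to 0.21 for Dct. The proliferation list had a mean of 6.45 in acellular replicate 1, 4.28 and 4.59 in the other acellular samples and 4.53, 4.36 and 4.43 in HDB skin. Mki67, the cell division marker Ki-67, stood at 698, 121 and 137 CPM against 101, 98.8 and 91.3 CPM. Its log2 fold change was -1.71 (adjusted p = 0.0945), and -0.41 without that sample. Mcm2, a replication licensing factor, had one of -1.33, and of -0.45 without it. None of 22 proliferation genes and none of 9 melanocyte genes was called, with 12 and 5 at an unadjusted p under 0.05 (23.2% of all genes), and 6 and 4 called by DESeq2 (14.1%). Without acellular replicate 3, 9 and 4 were called, against 14.9% of all genes, and without replicate 1, 0 of either list.

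**Figure D3:**
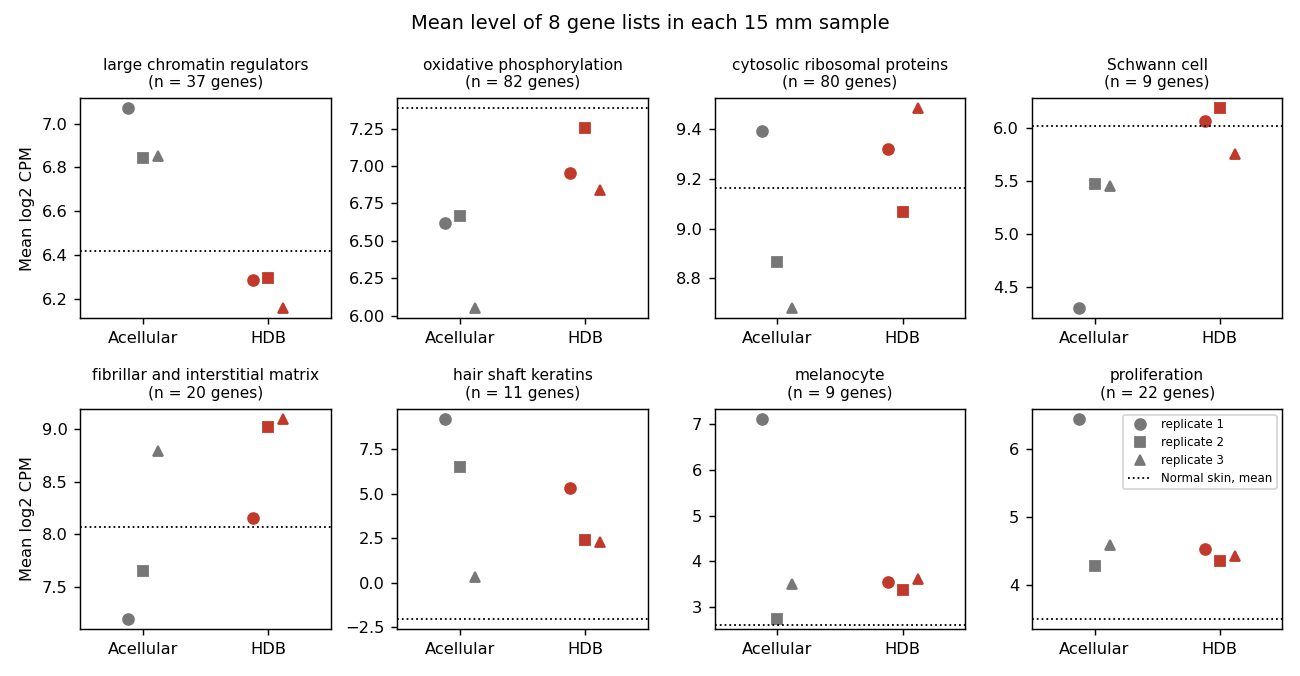
Mean log2 CPM of 8 gene lists in each 15 mm sample, with grey for acellular and red for HDB skin, marker shape for the replicate number and a dotted line for the mean of normal skin. The chromatin regulator, oxidative phosphorylation and Schwann cell lists do not overlap between the groups. For hair shaft keratins, melanocyte and proliferation genes acellular replicate 1 lies highest.

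Matrix genes had mostly positive values without a call. Of 20 genes of the fibrillar and interstitial matrix, 19 had a positive value, with a median log2 fold change of 0.84. The list mean was 7.20, 7.65 and 8.79 log2 CPM in acellular and 8.16, 9.02 and 9.10 in HDB skin, so acellular replicate 3 overlapped. Col3a1, the type III collagen of young scar, stood at 1201, 1477 and 5383 CPM against 3111, 6408 and 6258 CPM (log2 fold change 0.97, standard error 0.56, adjusted p = 0.315). Dcn, the proteoglycan decorin, stood at 300, 359 and 799 CPM against 699, 1348 and 1072 CPM (log2 fold change 1.10, adjusted p = 0.136). Without acellular replicate 3, 13 of the 20 were called, in a fit that called 2322 of 15552 genes. Without acellular replicate 1 the median was 0.47 and 0 were called. In the crosslinking and protease list, the collagen chaperone gene Serpinh1 stood at 216, 363 and 368 CPM against 449, 688 and 592 CPM with no overlap (log2 fold change 0.87, adjusted p = 0.0820). Mmp14, a membrane-bound collagenase, had a log2 fold change of 0.94 (adjusted p = 0.177). No member of either list was called, with 2 of 20 and 7 of 20 at an unadjusted p under 0.05 (23.2% of all genes), and 1 and 3 called by DESeq2 (14.1%). Without acellular replicate 3, 7 of 20 crosslinking and protease genes were called (14.9% of all genes), and without replicate 1, 0. Serpinh1 (adjusted p = 0.0436) and Mmp14 (0.0330) were among the 7. Postn, the matricellular protein periostin, had a log2 fold change of 0.79 (adjusted p = 0.151). With the block within 15 mm, which assumes a pairing, Serpinh1 (adjusted p = 0.0413), Mmp14 (0.0497) and Postn (0.0475) were called. That fit called 5 of 20 crosslinking and protease genes and 0 of 20 of the fibrillar list, against 5.15% of all genes.

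Vessel, nerve and muscle genes gave the following values. All 18 endothelial genes had positive values, with a median of 0.44 that was 0.25 without acellular replicate 1 and 0.067 without HDB replicate 2. None was called, 4 had an unadjusted p under 0.05 (23.2% of all genes) and DESeq2 called 1 (14.1% of all genes), so neither count stood above its share of all genes. Egfl7, a secreted endothelial factor, stood at 16.4, 25.8 and 28.5 CPM against 38.3, 50.4 and 37.3 CPM without overlap (log2 fold change 0.83, adjusted p = 0.131). Pecam1, the endothelial adhesion molecule CD31, overlapped at 51.1, 55.8 and 101 CPM against 85.7, 140 and 57.3 CPM. The Schwann cell list was the only cell type list whose mean did not overlap, with 4.30, 5.47 and 5.46 log2 CPM in acellular and 6.07, 6.19 and 5.76 in HDB skin. In 6 of its 9 genes all HDB samples lay higher, against 8.55% of all genes. None was called, with 4 at an unadjusted p under 0.05 and 3 called by DESeq2, against 23.2% and 14.1% of all genes. Pmp22, a myelin protein also made by fibroblasts, stood at 76.0, 219 and 227 CPM against 376, 430 and 380 CPM (log2 fold change 1.19, adjusted p = 0.137). S100b stood at 4.02, 6.54 and 6.96 CPM against 10.9, 11.0 and 11.6 CPM (log2 fold change 0.94, adjusted p = 0.0664). Skeletal muscle genes, which mark the muscle layer beneath the skin, had a list mean of 7.04, 9.80 and 5.28 log2 CPM in acellular, 9.01, 10.2 and 8.57 in HDB and 11.1 in normal skin. Acta1 and Mylpf, the actin and myosin light chain of fast muscle, overlapped between the groups. Tpm2, the most abundant mural gene and also a muscle gene, had a log2 fold change of 1.03 (adjusted p = 0.493).

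Immune lists had no called member, with the exception of Tslp among the epithelial alarmins and Ackr3 among the chemokines and receptors. Of 12 macrophage genes 11 had positive values, with a median of 0.79 that was 0.45 without acellular replicate 1. C1qc, a complement component made by macrophages, stood at 13.3, 21.5 and 40.6 CPM against 42.3, 78.3 and 46.6 CPM (log2 fold change 1.15, adjusted p = 0.196), and Lyz2, lysozyme, overlapped. Mast cell genes had a median of 0.98, and of 0.57 without that sample. Without acellular replicate 3 the macrophage median was 1.26 with 0 called, the mast cell median 2.02 with 5 of 8 called and the T cell median 1.47 with 2 of 11 called, against 14.9% of all genes. Of the 12 macrophage, 8 mast cell and 11 T cell genes, 1, 1 and 0 had an unadjusted p under 0.05, below the 23.2% of all genes, and DESeq2 called 0, against 14.1%. The chymase gene Cma1 stood at 5.10, 12.9 and 35.0 CPM against 35.9, 50.6 and 44.2 CPM (log2 fold change 1.30, adjusted p = 0.190). The related protease gene Mcpt4 had one of 1.01. T cell genes were low in acellular replicate 1, with Cd3g at 2.10, 7.99 and 21.4 CPM against 10.6, 13.6 and 24.9 CPM, and the list median of 0.49 was 0.05 without that sample. Cd247 had a log2 fold change of 0.61. At the receptor level of type 2 signals, Il13ra1 had one of 0.18, and of -0.11 without acellular replicate 1. Among wound keratinocyte genes, Krt17 stood at 1703, 2387 and 622 CPM against 1493, 642 and 1299 CPM. Sprr1b stood at 13.9, 1.17 and 0.425 CPM against 0.343, 0.242 and 0.282 CPM (log2 fold change -4.12, adjusted p = 0.118). Without acellular replicate 1 its log2 fold change was -1.425. Krt15, of follicle stem cells and basal epidermis, had a log2 fold change of 0.75 (adjusted p = 0.307). In 32 of the 39 lists no member was called, and the 16 lists not described by name had medians between -0.51 and 1.00.

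The called genes were next placed beside the samples that did not enter the 15 mm contrast. The 89 genes called higher had a mean of 4.92, 5.12 and 5.00 log2 CPM in acellular 15 mm and 5.59, 5.75 and 5.70 in HDB 15 mm skin. They stood at 5.68, 5.64 and 5.72 in normal skin, at 5.41, 5.54 and 5.32 in acellular 10 mm skin and at 5.33, 5.36 and 5.18 in HDB 10 mm skin. The 361 genes called lower had a mean of 6.39, 6.06 and 6.04 in acellular 15 mm skin and 5.47, 5.48 and 5.26 in HDB 15 mm skin. They stood at 5.59, 5.58 and 5.56 in normal skin, at 5.80, 5.60 and 5.90 in acellular 10 mm skin and at 5.87, 5.69 and 5.88 in HDB 10 mm skin. The 15 mm values chose the genes and are given as a description. The other samples entered the spread estimate behind the calls, so they are not fully independent of the choice. The HDB 15 mm mean lay nearer to the normal mean than the acellular one in 88.8% of the genes called higher and 89.2% of those called lower, against 65.2% of all genes tested. The same HDB and acellular values chose the genes, so these shares cannot show a shift towards normal skin.

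**Figure D4:**
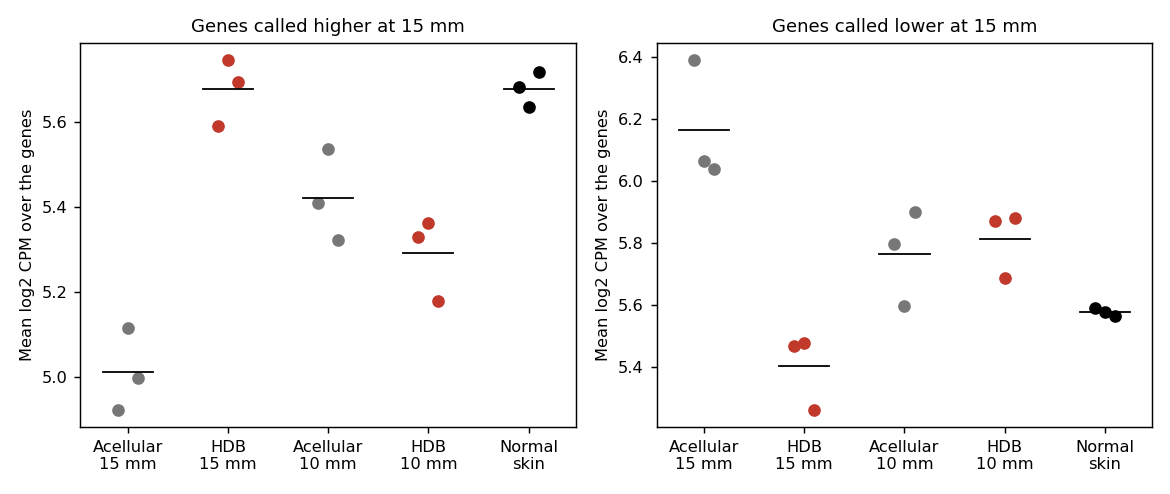
Mean log2 CPM over the 89 genes called higher (left) and the 361 called lower (right) at 15 mm, for each of the 15 samples, with a line at each group's mean. The 15 mm contrast chose the genes, and all 15 samples set the spread of that fit. The 10 mm samples lie between the acellular and HDB 15 mm groups, with acellular and HDB 10 mm samples overlapping.

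At 10 mm, where HDB and acellular skin were compared in other samples, 0 genes were called by edgeR, 543 had an unadjusted p under 0.05 and DESeq2 called 4 higher and 13 lower. The genes called at 15 mm mostly had the opposite sign there. Of those called higher 11 of 89 (12.4%) had the same sign at 10 mm, against 53.1% of all genes with a positive value at 15 mm. Of those called lower 115 of 361 (31.9%) had the same sign, against 56.7% of all genes with a negative value. The values at 10 mm were small, with medians of -0.14 and 0.05. The 10 mm samples entered the spread behind the calls, and without 1 of them 151 to 335 genes were called at 15 mm. The length trend at 10 mm gave a median of -0.17 in the shortest and 0.12 in the longest bin. Its slopes per sample overlapped between the groups there, at -0.086, -0.075 and 0.063 in acellular and 0.108, -0.04 and 0.076 in HDB skin. The chromatin list had a median of 0.05 and the oxidative phosphorylation list one of -0.18. Other lists had medians of the same sign at both sizes. At 10 mm the fibrillar matrix list had a median of 1.10 with 20 of 20 positive values and a list mean that did not overlap, with 7.31 ± 0.40 log2 CPM in acellular and 8.36 ± 0.29 in HDB skin (SD, n = 3). The endothelial median was 0.56 with 18 of 18 positive, and those of the hair shaft and inner root sheath lists were -5.51 and -4.47 with 0 of 11 and 0 of 9 positive, and the means of these 3 lists overlapped. In a test of the difference between the sizes, 0 genes passed with edgeR and 2063 had an unadjusted p under 0.05. The smallest adjusted p of that test was 0.118, and DESeq2 called 269 genes with a larger value at 15 mm and 583 with a smaller one.

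**Figure D5:**
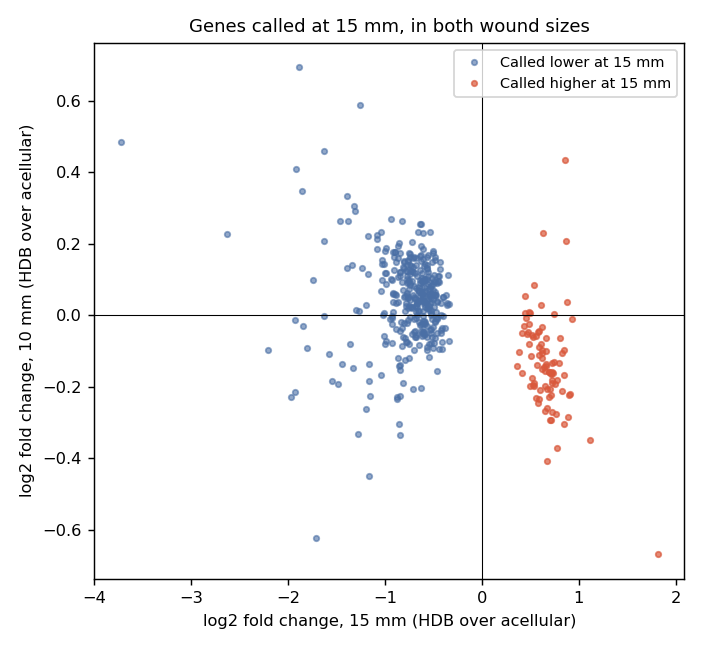
Log2 fold change of HDB over acellular skin at 15 mm (horizontal axis) and at 10 mm (vertical axis) for the 450 genes called at 15 mm, with red for those called higher and blue for those called lower. The 15 mm contrast chose the genes, and the 10 mm samples entered the spread of that fit. Neither axis is therefore independent of the choice of genes. The 10 mm values lie around 0, with medians of -0.14 for the red and 0.05 for the blue points.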

How the data were processed

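Estimated counts (expected counts) were deposited by the authors as 1 table without normalization, for 18929 mouse genes in 15 skin samples. The submitters' processing notes name HISAT2 2.0.4, Bowtie2 2.2.5, RSEM 1.2.12 and GRCm38.p6, and mRNA was enriched with oligo(dT). Total counts were 15840551 to 18404188 per sample. Counts were rounded. In R 4.3.3, edgeR 4.0.16 (TMM, filterByExpr, quasi-likelihood test, 1 fit of 5 group means, Benjamini-Hochberg adjustment, threshold 0.05) tested 15369 genes. Levels are TMM-normalized CPM, with a prior count of 2 in log2 CPM. With 3 samples a side an exact permutation test cannot go below p = 0.1, so non-overlap is given beside its share of all genes.

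The gene lists (39) and the rule for naming genes were chosen with earlier results of these data known. Named were the 10 largest rises and falls among called, non-overlapping genes above 1 CPM, 5 each above 10 CPM called in the most settings, and the most abundant and smallest-p member of each list, printed for 23 lists that were picked after values were seen. Genes of these rules that the text does not name are not reported here. Alternatives used DESeq2 1.42.0, limma 3.58.1, other filters, samples, blocks and trend removals. Lengths are those of the longest GENCODE transcript under a gene's Entrez identifier (98.2% of tested genes). What the replicate numbers mark is not given in the sources used here. Samples with the same number deviated together at 15 mm (r = 0.397, 0.167 and 0.183, against -0.435 to 0.163 between unlike numbers), so the numbers were taken as pairing them there. At 10 mm they did not (r = -0.312, 0.0348 and -0.078), and the block across 5 groups also spans these and the normal samples. No label gives a pairing at 15 mm, so calls with the block within 15 mm rest on an assumption drawn from the same values. The pipeline was tested on simulated counts.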

Additional observations from a re-analysis of the deposited data

Results flagged for a closer look

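Of 71 named genes and 39 lists, 3 genes had all HDB samples on one side of the acellular samples at 15 mm and all on the other side at 10 mm. The edgeR test of the difference between the sizes did not pass for any of them. Tslp stood at 1.60, 1.80 and 2.51 CPM in acellular and 1.42, 1.40 and 0.889 CPM in HDB 10 mm skin, the reverse of its order at 15 mm, and its log2 fold changes differed by 2.48. Aak1 stood at 4.11, 2.75 and 4.09 CPM in acellular and 7.34, 4.52 and 5.89 CPM in HDB 10 mm skin, and its log2 fold changes differed by -2.59 (15 mm minus 10 mm). Uqcc2 stood at 69.5, 69.0 and 57.0 CPM in acellular and 55.3, 55.7 and 48.5 CPM in HDB 10 mm skin, and its log2 fold changes differed by 0.99. Among all genes tested, 235 were apart at both sizes and 115 of these in opposite directions. Of the genes called at 15 mm, 16 were apart at 10 mm in the opposite direction and 9 in the same direction.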

How the results depend on the processing

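At 15 mm, 89 genes were called higher and 361 lower. DESeq2 gave 599 and 1575, no filter 35 and 164, a minimum mean count of 50 gave 155 higher, and a minimum absolute log2 fold change of 1 left 2 and 55. Fits of the 15 mm groups only (1600 genes at an unadjusted p under 0.05), of the wound groups only (2962) and with voom and group quality weights (1840) called 0 genes higher and 0 lower. The replicate block over 5 groups gave 40 and 139, a replicate block within the 15 mm samples 210 and 581, and the 15 mm groups only with a replicate block 0 and 0 (1544 unadjusted). Removal of the length trend gave 0 and 0 (2551 unadjusted), with the replicate block 0 and 0 (2232 unadjusted). Removal of the GC trend gave 55 and 547, and with the replicate block 26 higher. Leaving out 1 sample at a time, those of 10 mm included, gave 0 to 524 higher and 0 to 1798 lower. Leaving out 10 mm samples and the fits below at 10 mm were chosen after seeing the data. At 10 mm DESeq2 called 4 higher and 13 lower, the wound groups only 1 lower and GC trend removal 1 lower. For the difference between sizes DESeq2 called 269 and 583, and leaving out 1 sample gave 0 to 1 lower.

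Signs turned for few named genes. Rps2 turned with the length trend removed (-0.29, with the replicate block -0.26) and the GC trend removed (-0.071, with the replicate block -0.032), and Atp5b with the length trend removed (-0.19, with the replicate block -0.17) and the GC trend removed (-0.012). Leaving out 1 sample ranged from -0.12 to 0.39 for Rps2, -0.11 to 0.25 for Atp5b, -2.93 to 0.21 for Dct, -8.39 to 0.83 for Oca2, -0.11 to 0.43 for Il13ra1 and -0.48 to 1.4e-05 for Ctnnb1. The causes were not tested. Depth differed little between samples, and genes near 1 CPM, such as Tslp in acellular skin, rest on few reads.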
